A study of Mus musculus with 6 samples.

Results

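The matrix metalloproteinases (MMPs), the ADAM and ADAMTS metalloproteinases and their inhibitors, the TIMPs, were taken as a group from the transcript levels of cells sorted as peritoneal ECs. Genes were chosen by symbol: every numbered Mmp, Timp and Adamts gene of the deposited table, and the 9 ADAM genes Adam8, Adam9, Adam10, Adam12, Adam15, Adam17, Adam19, Adam28 and Adam33. This gave 55 of 22183 genes, made up of 23 MMP, 4 TIMP, 19 ADAMTS and 9 ADAM genes. RNA was sequenced from 3 saline mice and 3 PD mice, with 1 library from each mouse. All were wild-type male C57BL/6J mice aged 8 to 10 weeks, given an intraperitoneal injection of saline or of glucose-based Dianeal PD fluid every day for 6 weeks. ECs came from the mesentery, by magnetic sorting of CD31+ cells according to the sample labels and by fluorescence-activated sorting of CD31+ CD45- cells according to the supplementary methods of the study. The comparison asks how 6 weeks of PD fluid altered the transcript levels of these proteases and inhibitors in the sorted cells.

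MMPs are zinc-dependent proteases that cut collagens, basement membrane and other matrix proteins. Most are secreted as inactive proenzymes, while the membrane-type members act at the cell surface. ADAMs are mostly membrane-bound and shed the extracellular parts of cytokines, growth factors and receptors, and ADAMTS proteins are secreted and process procollagens, proteoglycans or von Willebrand factor. TIMPs bind the active site of MMPs and of some of the ADAM and ADAMTS proteases. In the peritoneum the balance of MMPs and TIMPs is known for its role in matrix turnover, vessel sprouting and fibrosis.

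Library totals ran from 21973426 to 26374292 counts, and levels are given as CPM, which are counts scaled to the size of the library with TMM factors. The sorted cells carried transcripts of several cell types, given here as the CPM summed over a list of markers in each mouse. Of the 12 endothelial markers, 11 were higher in PD mice, and their sum ranged from 1145 to 1158 CPM in saline mice and from 1827 to 1905 CPM in PD mice. Leukocyte CD45 (Ptprc) was at 2295, 2519 and 2304 CPM in saline mice and 1405, 1483 and 1531 CPM in PD mice. That of CD31 (Pecam1), used for the sort, was at 458, 491 and 457 CPM and 519, 505 and 517 CPM. CD45 transcripts were thus plentiful in libraries for which the supplementary methods describe a CD45- sort. Among the leukocyte lists, all 10 macrophage markers were higher in PD mice (sum 2407 to 2539 CPM, then 9838 to 10521 CPM), as were 8 of 9 tested neutrophil markers (16.3 to 19.1 CPM, then 359 to 395 CPM). All 8 B cell markers were lower (6034 to 6335 CPM, then 2832 to 2847 CPM), and the sum of the 8 T and NK cell markers went from 1297 to 1350 CPM to 1139 to 1248 CPM. In the tissue lists, 9 of 10 fibroblast markers (116 to 123 CPM, then 885 to 920.3 CPM), all 8 mesothelial markers (30.3 to 35.6 CPM, then 210.3 to 235 CPM) and 8 of 9 pericyte and smooth muscle markers (291 to 314 CPM, then 465 to 513 CPM) were higher. All 12 pancreatic acinar markers were higher as well, with a sum of 4.53 to 10.7 CPM in saline mice and 10224 to 14206 CPM in PD mice. The 6 mast cell markers were all higher (236 to 242 CPM, then 345 to 393 CPM), and of 5 tested adipocyte markers 1 was higher and 1 lower (517 to 647 CPM, then 744 to 779 CPM). No marker was at 0 in all 3 saline mice, although Camp and Ly6g of the neutrophil list and Reg1 of the acinar list had 3 counts or fewer in each of them. In bulk libraries such as these, fewer cells of a type and less RNA per cell cannot be told apart. The part of these marker changes in the results for the proteases and inhibitors was not tested.

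**Figure D1:**
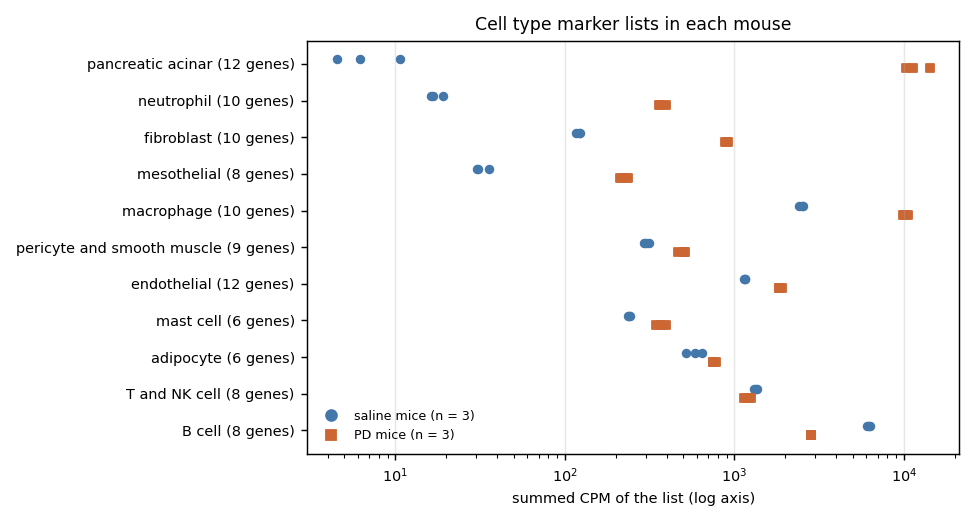
Summed CPM of 11 lists of cell type markers (x axis, log scale) in each of 3 saline mice (circles) and 3 PD mice (squares). The acinar, neutrophil, fibroblast, mesothelial and macrophage sums were higher in every PD mouse than in any saline mouse, the endothelial sum went from 1145 to 1158 CPM to 1827 to 1905 CPM, and the B cell sum was lower in every PD mouse.

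Of the 55 genes, 40 had a mean of at least 10 counts over the 6 mice and were tested together with the rest of the table (13960 genes in all). On the TMM scale most of them were higher in PD mice: 29 passed an adjusted p of 0.05 upward and 2 downward (19 and 7 on the scale of endothelial markers, described below). The test was the quasi-likelihood F test of edgeR, adjusted by Benjamini-Hochberg over all genes tested. In the whole table, 31.0% of tested genes were higher and 27.8% lower by the same test. The median log2 fold change of the 40 genes was 1.36, against 0.02 for all genes tested, and 24 of them were at least 2-fold higher. In 29 of the 40, the lowest PD mouse was above the highest saline mouse, which held for 33.8% of all genes tested. These counts are a description, because 5 of the 40 (Mmp3, Mmp13, Timp1, Adamts7 and Adamts8) reached the minimum through the PD mice alone and Adamts13 through the saline mice alone. Nearest to the minimum were Mmp13, tested at a mean of 10.2 counts, and Mmp27, not tested at 9.83.

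The scale matters for the genes with small changes. With the libraries scaled to the 12 endothelial markers in place of TMM, the median log2 fold change of all genes tested moved from 0.02 to -0.67. The size of this shift depends on the markers used, which did not rise alike. On the TMM scale they ran from Pecam1 at a log2 fold change of 0.13, not called and the most abundant of them, to Tie1 at 1.65. Of all genes tested, 11.9% were higher and 63.9% lower on that scale, and of the 40 genes 19 were higher and 7 lower. 11 of the 40 turned from above to below 0: Mmp11, Timp4, Adamts5 and Adamts10, which were called higher on the TMM scale, and Mmp13, Mmp28, Adamts14, Adamts18, Adam12, Adam17 and Adam19, which were not called there.

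**Figure D2:**
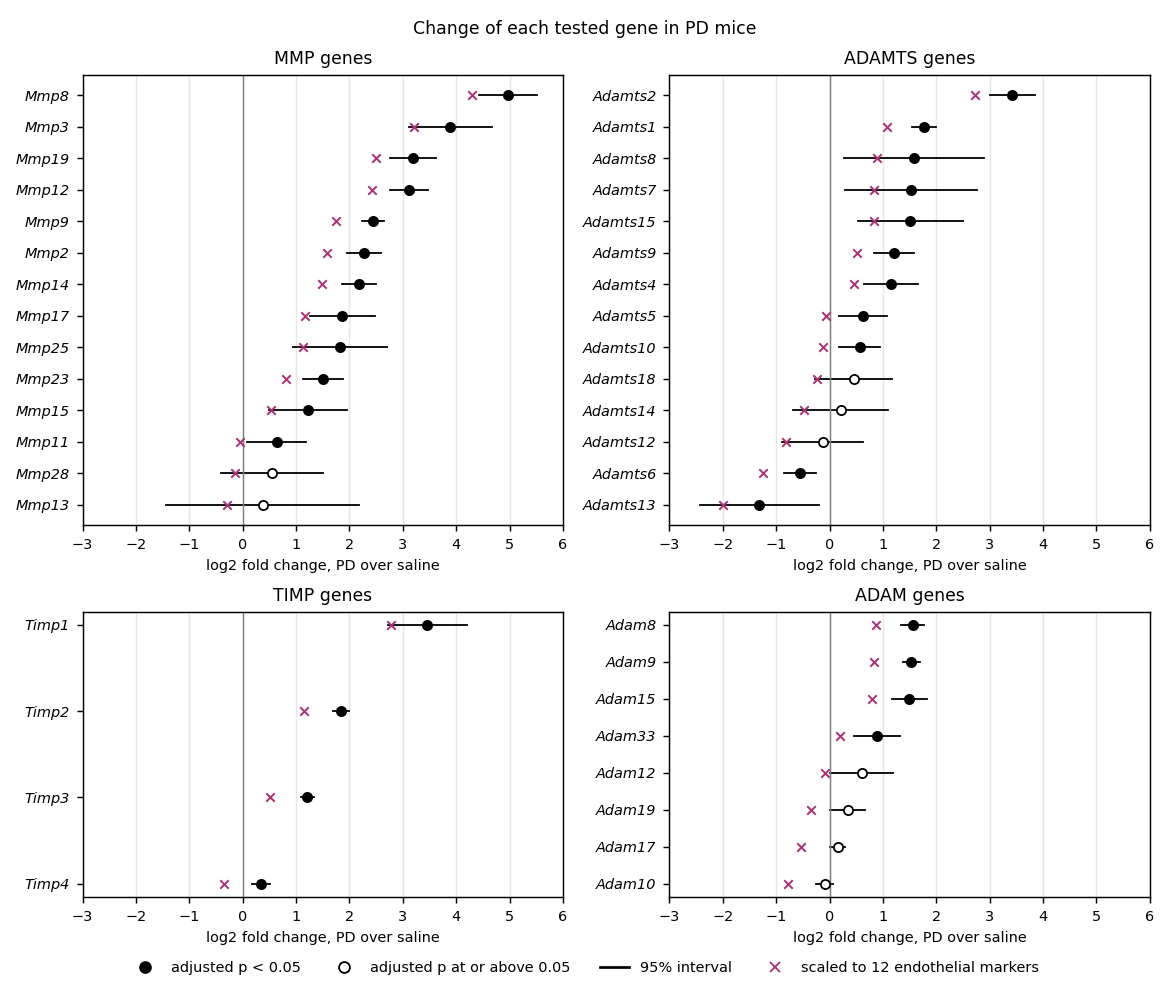
Log2 fold change of PD over saline mice (x axis) for the 40 tested genes, by class, from 3 mice a group. Circles with 95% intervals are on the TMM scale, filled where the edgeR adjusted p is under 0.05, and crosses show the same genes scaled to 12 endothelial markers. On the TMM scale, Mmp8 lies highest at 4.97 and Adamts13 lowest at -1.31, and crosses lie left of circles, below 0 for 11 genes whose circles lie above it (Mmp11, Mmp13, Mmp28, Timp4, Adamts5, Adamts10, Adamts14, Adamts18, Adam12, Adam17 and Adam19).

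Of the 14 tested MMP genes, 12 were higher in PD mice on the TMM scale, against 31.0% of all genes tested, and 2 did not pass. The median log2 fold change of the 14 was 2.02, and the lowest was that of Mmp13 at 0.38. Scaled to endothelial markers, Mmp11 and Mmp15 lost their calls, and 11.9% of all genes tested were higher. The collagenase Mmp8 (ENSMUSG00000005800, chr9:7558456-7568485 on the plus strand), best known from neutrophil granules, was at 0.430, 0.231 and 0.580 CPM in the saline mice and 12.3, 14.6 and 13.1 CPM in the PD mice. Every PD mouse was far above every saline mouse, the largest change among the 40 tested genes on the TMM scale (log2 fold change 4.97 ± 0.24 (SE), edgeR adjusted p = 3.41e-08). Mmp13 (ENSMUSG00000050578, chr9:7272514-7283331 on the plus strand), the other collagenase with enough counts, was at 0.351, 0.784 and 0 CPM in the saline mice and 0.294, 0.797 and 0.362 CPM in the PD mice. Its groups overlapped and it did not pass the test (log2 fold change 0.38, 95% interval -1.43 to 2.18, edgeR adjusted p = 0.711), and its log2 fold change was -0.30 when scaled to endothelial markers.

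The gelatinases Mmp2 and Mmp9, which cut denatured collagen and type IV collagen of basement membranes, both rose. Mmp9 (ENSMUSG00000017737, chr2:164940780-164955850 on the plus strand), a product of neutrophils, macrophages and activated ECs, was at 20.3, 16.5 and 20.3 CPM in the saline mice and 102, 109.7 and 99.2 CPM in the PD mice. No PD mouse overlapped with a saline mouse (log2 fold change 2.44 ± 0.10 (SE), edgeR adjusted p = 6.18e-09). Mmp2 (ENSMUSG00000031740, chr8:92827291-92853420 on the plus strand), a typical product of fibroblasts and other stromal cells, was at 4.61, 5.35 and 3.93 CPM in the saline mice and 24.8, 20.9 and 21.7 CPM in the PD mice. Again the groups lay apart (log2 fold change 2.28 ± 0.14 (SE), edgeR adjusted p = 2.83e-07). By length, Mmp9 was the more abundant of the pair, with the authors' FPKM at 5.98 ± 0.744 (SD, n = 3) in the saline group and 32.7 ± 2.06 (SD, n = 3) in the PD group, against 1.5 ± 0.217 and 7.36 ± 0.919 (SD, n = 3 each) for Mmp2.

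Stromelysin 1, Mmp3 (ENSMUSG00000043613, chr9:7445822-7455975 on the plus strand), which cuts proteoglycans and activates other proMMPs, was at 0.312, 0.323 and 0.166 CPM in the saline mice and 3.79, 3.23 and 5.07 CPM in the PD mice. It was scarce in saline mice and higher in every PD mouse (log2 fold change 3.89 ± 0.35 (SE), edgeR adjusted p = 5.34e-06). Macrophage elastase, Mmp12 (ENSMUSG00000049723, chr9:7344381-7369499 on the plus strand), was at 3.32, 5.16 and 3.23 CPM in the saline mice and 32.4, 35.7 and 32.9 CPM in the PD mice. The groups did not overlap (log2 fold change 3.12 ± 0.17 (SE), edgeR adjusted p = 6.37e-08), and Mmp12 reached an FPKM of 21.8 ± 1.75 (SD, n = 3) in PD mice from 2.53 ± 0.633 (SD, n = 3) in saline mice. Mmp11, or stromelysin 3, was at 4.76, 3.09 and 3.39 CPM in the saline mice and 5.22, 7.89 and 4.44 CPM in the PD mice. Its groups overlapped and its call was the weakest of the class (log2 fold change 0.64 ± 0.25 (SE), edgeR adjusted p = 0.0467), and its log2 fold change was -0.05 when scaled to endothelial markers. Without saline 2, saline 3, PD 1 or PD 2, Mmp11 did not pass, with a log2 fold change between 0.37 and 0.86 and an edgeR adjusted p of up to 0.231 over all omissions of a mouse. It also missed the threshold with limma-voom (adjusted p = 0.0581), with total counts (edgeR adjusted p = 0.0526), with the replicate block (edgeR adjusted p = 0.0647) and with the GC correction described below (edgeR adjusted p = 0.206). Mmp11 shares 155 exon bases with Chchd10 on the opposite strand, which had a log2 fold change of -0.92.

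All 4 tested membrane-type MMPs (Mmp14, Mmp15, Mmp17 and Mmp25) were higher. MT1-MMP, Mmp14 (ENSMUSG00000000957, chr14:54431612-54445364 on the plus strand), which activates proMMP-2 at the cell surface and cuts fibrillar collagen, was at 12.1, 8.44 and 13.7 CPM in the saline mice and 49.5, 51.2 and 55.1 CPM in the PD mice. The lowest PD mouse was well above the highest saline mouse (log2 fold change 2.18 ± 0.15 (SE), edgeR adjusted p = 5.03e-07). Mmp15, a second transmembrane member, and Mmp17 and Mmp25, which are held by lipid anchors, had log2 fold changes of 1.22, 1.86 and 1.82 (edgeR adjusted p = 0.00853, 2.03e-04 and 0.00256). Scaled to endothelial markers, Mmp15 did not pass, at a log2 fold change of 0.53. Mmp25, known from neutrophils, was the most scattered in saline mice, at 1.99, 0.369 and 1.90 CPM. Saline 2 was the lowest saline mouse for all 4 of these genes, and across 13942 genes the deviation of saline 2 from its group mean ran against GC content (r = -0.296, genes not being independent). With a correction for GC content, the log2 fold changes of Mmp14, Mmp15, Mmp17 and Mmp25 stayed past the threshold.

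Of the remaining MMPs, Mmp19 (ENSMUSG00000025355, chr10:128790910-128800824 on the plus strand), a secreted enzyme that cuts basement membrane proteins, was at 1.13, 1.61 and 1.86 CPM in the saline mice and 14.5, 12.4 and 15.3 CPM in the PD mice. It rose in every PD mouse relative to any saline mouse (log2 fold change 3.20 ± 0.20 (SE), edgeR adjusted p = 2.31e-07). Mmp19 shares 789 exon bases, 22.3% of its own, with Tmem198b on the opposite strand, and Tmem198b itself had a log2 fold change of 0.73. Strand was not stated for the library, so reads of the shared stretch cannot be told apart. Mmp23 was higher (log2 fold change 1.5, edgeR adjusted p = 3.11e-05), and Mmp28 was at 0.937, 0.692 and 0.538 CPM in the saline mice and 0.589, 1.17 and 1.45 CPM in the PD mice with overlapping groups (log2 fold change 0.55, 95% interval -0.41 to 1.5, edgeR adjusted p = 0.299). On the scale of endothelial markers Mmp28 was at -0.14 (log2).

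Alongside these MMP changes, the summed neutrophil markers went from 16.3 to 19.1 CPM to 359 to 395 CPM, the macrophage markers from 2407 to 2539 CPM to 9838 to 10521 CPM and the fibroblast markers from 116 to 123 CPM to 885 to 920.3 CPM. Their part in the changes of Mmp8, Mmp9, Mmp25, Mmp12, Mmp2 and Mmp3 was not tested.

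**Figure D3:**
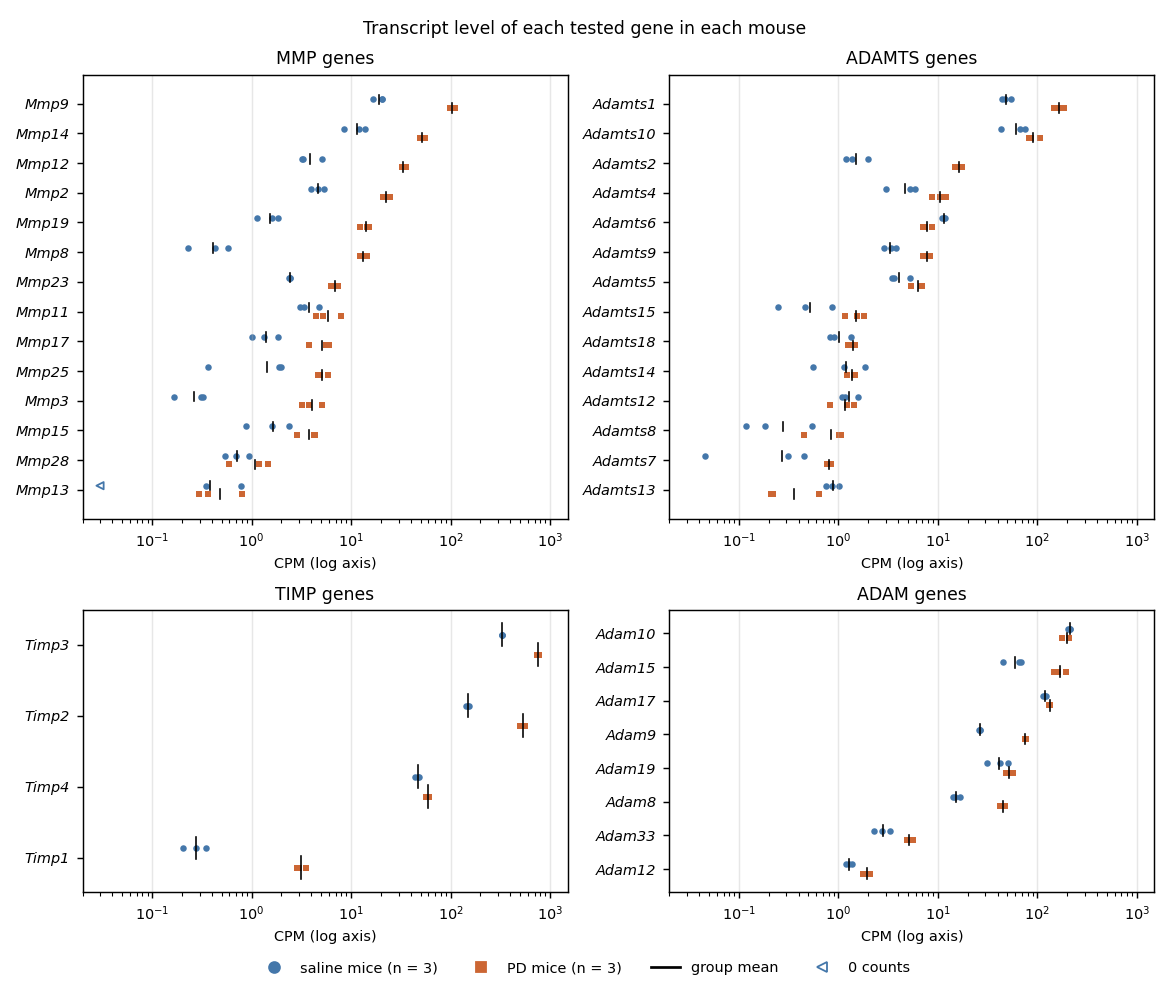
CPM of each tested gene (x axis, log scale) in 3 saline mice (circles) and 3 PD mice (squares), by class, with group means as vertical bars and an open triangle for 0 counts. On this TMM scale the squares lie right of all circles for Mmp8, Mmp12, Mmp9, Mmp14 and every TIMP, and left of them for Adamts6 and Adamts13. Scaled to endothelial markers, Timp4 lies below 0 on the log2 scale.

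10 MMP genes lie within 427 kb of chromosome 9 (chr9:7272514-7699585, GRCm38), and they behaved unequally. Mmp3, Mmp8 and Mmp12 rose, Mmp13 did not pass the test, Mmp1a, Mmp1b and Mmp20 had 0 counts in every mouse, and Mmp7, Mmp10 and Mmp27 were below the minimum for the test. Mmp27 had 0, 0 and 3 counts in the saline mice and 21, 17 and 18 counts in the PD mice, with every PD mouse above every saline mouse. Mmp7, or matrilysin, had 3, 1 and 1 counts in the saline mice and 10, 7 and 12 counts in the PD mice, again without overlap. Mmp10, or stromelysin 2, had 5, 1 and 4 counts in the saline mice and 0, 1 and 0 counts in the PD mice (saline 2 and PD 2 equal). No fold is given at these counts. Genes with 0 counts allow a level of up to 0.11 to 0.138 CPM, the value of 3 counts in each library, as far as counting error goes.

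Promoters of this cluster are shown because neighbours that share a motif near the start differed in level. RefSeq promoters (GRCm38.p6) were matched for 37 of the 55 genes, including all 10 of the cluster. The AP-1 motif, TGACTCA or its reverse complement TGAGTCA, was found in the 250 bases before the start in 7 of the 10 cluster genes (Mmp1a, Mmp1b, Mmp3, Mmp7, Mmp10, Mmp12 and Mmp13), in 8 of the 37 genes and in 4.46% of 32851 promoters. TATAAA, searched on both strands, was in 7 of the 10, 9 of the 37 and 12.4% of all promoters. GGGCGG, also on both strands, was in 0 of the 10, 20 of the 37 and 32.7% of all. The units differ: among the 10 and the 37, a gene counted if any of its RefSeq starts held the motif. In the share of all promoters, each start counted on its own. The 100 bases before the start are printed below from 5′ to 3′ on the plus strand, with the AP-1 motif in capitals, at chr9:7445722-7445821 (Mmp3), chr9:7347274-7347373 (Mmp12), chr9:7502242-7502341 (Mmp10), chr9:7272414-7272513 (Mmp13) and chr9:7464041-7464140 (Mmp1a). Mmp14 on chromosome 14 (chr14:54431498-54431597) is added as a promoter without the AP-1 motif, with GGGCGG in capitals.
Mmp3: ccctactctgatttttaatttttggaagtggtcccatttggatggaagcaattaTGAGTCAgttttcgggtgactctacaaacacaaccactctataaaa
Mmp12: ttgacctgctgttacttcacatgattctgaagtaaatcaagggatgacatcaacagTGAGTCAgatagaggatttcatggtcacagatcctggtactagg
Mmp10: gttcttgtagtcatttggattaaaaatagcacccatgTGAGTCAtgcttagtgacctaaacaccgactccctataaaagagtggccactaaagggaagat
Mmp13: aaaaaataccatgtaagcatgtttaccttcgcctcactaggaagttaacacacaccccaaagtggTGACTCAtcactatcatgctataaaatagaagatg
Mmp1a: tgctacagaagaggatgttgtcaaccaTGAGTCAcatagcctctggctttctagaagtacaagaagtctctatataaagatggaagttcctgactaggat
Mmp14: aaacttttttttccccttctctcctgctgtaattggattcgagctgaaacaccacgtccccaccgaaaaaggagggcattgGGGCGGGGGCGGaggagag

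The first base of the AP-1 motif lay at position -46 for Mmp3, -44 for Mmp12, -63 for Mmp10, -35 for Mmp13 and -73 for Mmp1a, counted from -1 at the last base before the start. Of these 5, Mmp3 and Mmp12 rose, Mmp13 did not pass the test, Mmp10 had 5 counts or fewer in every mouse and Mmp1a had 0. Mmp8, with the largest rise, held neither AP-1 nor TATAAA in its window, and Mmp14 held GGGCGG from position -19. Mmp7 and Mmp12 each have a second RefSeq start whose window holds no AP-1 motif. A match is a description of letters and not of a bound site.

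All 4 TIMP genes were higher in PD mice on the TMM scale, 3 of them at least 2-fold, and Timp4 alone turned lower when scaled to endothelial markers. Timp1 (ENSMUSG00000001131, chrX:20870166-20874735 on the plus strand), the inducible and secreted inhibitor, was at 0.351, 0.277 and 0.207 CPM in the saline mice and 2.87, 2.98 and 3.53 CPM in the PD mice. It was scarce throughout, and the PD mice lay clear of the saline mice (log2 fold change 3.46 ± 0.34 (SE), edgeR adjusted p = 8.97e-06). Timp2 (ENSMUSG00000017466, chr11:118301069-118355740 on the minus strand), which inhibits MMPs and also joins Mmp14 in the activation of proMMP-2, was at 154, 142 and 149 CPM in the saline mice and 561, 530.2 and 505 CPM in the PD mice. The groups did not overlap (log2 fold change 1.84 ± 0.07 (SE), edgeR adjusted p = 2.83e-09). Timp3 (ENSMUSG00000020044, chr10:86300372-86349506 on the plus strand), the matrix-bound inhibitor that also acts on ADAM17, was at 329.6, 332 and 329 CPM in the saline mice and 782, 762 and 745 CPM in the PD mice. The 3 mice of each group lay close together, and the groups were apart (log2 fold change 1.21 ± 0.06 (SE), edgeR adjusted p = 2.08e-08). Timp3 shares 1733 exon bases (21.3% of its own) with Syn3 on the opposite strand, and Syn3 had a mean of 5.2 counts. Timp4 (ENSMUSG00000030317, chr6:115241892-115252205 on the minus strand), the member with the most restricted expression, was at 48.5, 47.4 and 44.0 CPM in the saline mice and 60.4, 56.0 and 60.1 CPM in the PD mice. Its rise was small though the groups did not overlap (log2 fold change 0.34 ± 0.08 (SE), edgeR adjusted p = 0.00309). Scaled to endothelial markers, its log2 fold change was -0.35 (edgeR adjusted p = 0.00156). Timp4 shares 90 exon bases with Syn2 on the opposite strand, which had a log2 fold change of 1.28. Timp1, Timp2 and Timp3 were higher on both scales (log2 fold changes 2.78, 1.15 and 0.52 when scaled to endothelial markers).

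Per length, Timp2 and Timp3 made up most of the TIMP transcripts. They held 89.1%, 90.3% and 91.0% of the summed TIMP FPKM in the saline mice and 94.4%, 94.7% and 93.9% in the PD mice. The FPKM summed over the 4 TIMP genes was 140.4, 137 and 138 in the saline mice and 382, 354 and 351 in the PD mice. Over the 23 MMP genes it was 21, 18.3 and 21 in the saline mice and 106, 110.2 and 102 in the PD mice. Every PD mouse was above every saline mouse in both sums. The ratio of the MMP sum to the TIMP sum was 0.149, 0.134 and 0.153 in the saline mice and 0.278, 0.311 and 0.291 in the PD mice, so the MMP transcripts were the fewer in every mouse. This ratio within a mouse does not depend on the scale of the library, and it is given as a description, with no test. Mmp9, Mmp12, Mmp14 and Mmp2 were the most abundant MMPs of PD mice by FPKM.

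**Figure D4:**
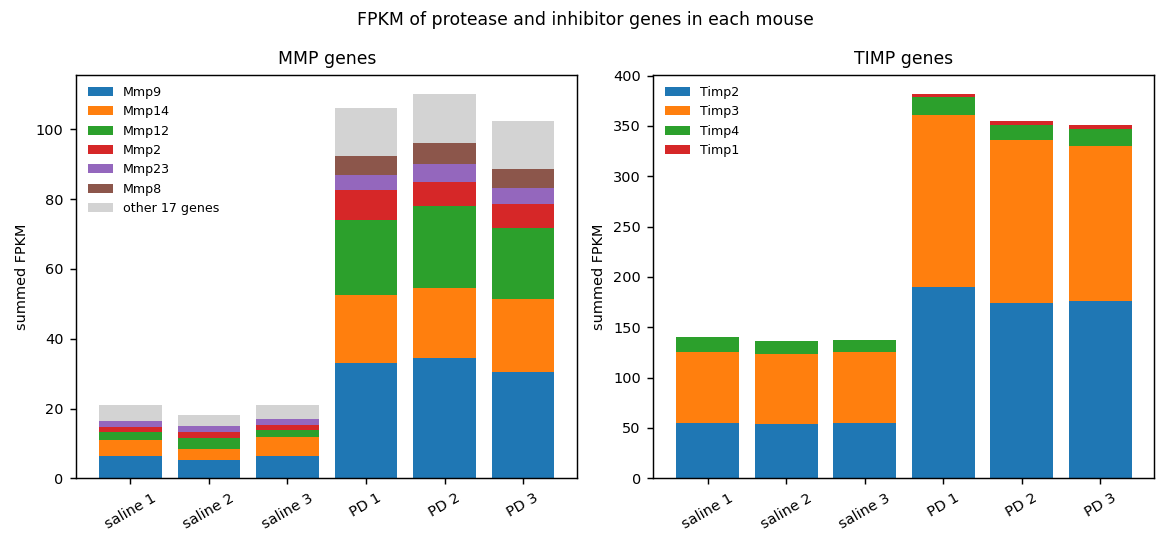
The authors' FPKM of the 23 MMP genes (left) and the 4 TIMP genes (right), stacked by gene in each of 3 saline mice and 3 PD mice. MMP sums went from 18.3 to 21 in saline mice to 102 to 110.2 in PD mice, mostly Mmp9, Mmp12 and Mmp14, and TIMP sums went from 137 to 140.4 to 351 to 382, mostly Timp2 and Timp3; the vertical scales of the panels differ.

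On the TMM scale, 9 of the 14 tested ADAMTS genes were higher and 2 lower, against 31.0% and 27.8% of all genes tested. The other 3 did not pass the test, and the median log2 fold change of the 14 was 0.89. When scaled to endothelial markers, 3 were higher and 3 lower, against 11.9% and 63.9% of all genes tested. Among the procollagen N-propeptidases, which trim fibrillar procollagens, Adamts2 (ENSMUSG00000036545, chr11:50602084-50807573 on the plus strand) was at 1.37, 1.20 and 1.99 CPM in the saline mice and 17.5, 14.8 and 16.8 CPM in the PD mice. It had the largest rise of the ADAMTS genes, and the groups lay apart (log2 fold change 3.42 ± 0.19 (SE), edgeR adjusted p = 9.79e-08). Adamts14 was at 1.13, 0.553 and 1.86 CPM in the saline mice and 1.44, 1.47 and 1.22 CPM in the PD mice, with the PD mice inside the range of the saline mice (log2 fold change 0.21, 95% interval -0.68 to 1.1, edgeR adjusted p = 0.678). Its log2 fold change was -0.48 when scaled to endothelial markers.

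All 6 tested proteoglycanases, which cut aggrecan and versican, were higher on the TMM scale, with Adamts5 turning below 0 when scaled to endothelial markers. Adamts1 (ENSMUSG00000022893, chr16:85793827-85803113 on the minus strand), which is induced by inflammation and limits vessel growth, was at 47.2, 43.6 and 53.9 CPM in the saline mice and 184, 165 and 145 CPM in the PD mice. The PD mice were above the saline mice throughout (log2 fold change 1.77 ± 0.10 (SE), edgeR adjusted p = 1.37e-07). Adamts15 was at 0.859, 0.461 and 0.248 CPM in the saline mice and 1.80, 1.55 and 1.18 CPM in the PD mice. It was low in all mice and did not overlap between groups (log2 fold change 1.51 ± 0.44 (SE), edgeR adjusted p = 0.0128). Adamts8 was at 0.117, 0.184 and 0.538 CPM in the saline mice and 1.07, 1.01 and 0.453 CPM in the PD mice. Its lowest PD mouse lay below its highest saline mouse, and its call was close to the threshold (log2 fold change 1.58 ± 0.59 (SE), edgeR adjusted p = 0.0391). Adamts9 and Adamts4 were higher with no overlap (log2 fold changes 1.21 and 1.15, edgeR adjusted p = 1.5e-04 and 0.00141). Adamts5 had a log2 fold change of 0.63 (edgeR adjusted p = 0.0209) on the TMM scale and -0.06 scaled to endothelial markers.

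Among the other ADAMTS genes, Adamts7, which cuts cartilage oligomeric matrix protein, was at 0.312, 0.0461 and 0.455 CPM in the saline mice and 0.773, 0.839 and 0.816 CPM in the PD mice. The 3 PD mice were close together and above the saline mice (log2 fold change 1.53 ± 0.56 (SE), edgeR adjusted p = 0.0368). Adamts10, which binds fibrillin microfibrils, had the highest FPKM of this subgroup, at 18 ± 4.77 (SD, n = 3) in saline mice and 25.8 ± 3.90 (SD, n = 3) in PD mice. The change was small (log2 fold change 0.57 on the TMM scale, edgeR adjusted p = 0.0169), and the log2 fold change was -0.13 scaled to endothelial markers and 0.20 with the GC correction, which ended the call. Adamts12 and Adamts18 did not pass the test, with log2 fold changes of -0.13 (95% interval -0.88 to 0.62) and 0.46 (95% interval -0.27 to 1.18) and edgeR adjusted p-values of 0.764 and 0.25. On the scale of endothelial markers they were at -0.82 (edgeR adjusted p = 0.0458) and -0.23.

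Both genes that were lower in PD mice belonged to this subgroup. Adamts13 (ENSMUSG00000014852, chr2:26973416-27009628 on the plus strand), the protease that cuts von Willebrand factor, was at 0.859, 1.01 and 0.745 CPM in the saline mice and 0.221, 0.210 and 0.634 CPM in the PD mice. It was low in all mice, and the PD mice lay below the saline mice (log2 fold change -1.31 ± 0.50 (SE), edgeR adjusted p = 0.0428). Its substrate Vwf, one of the 12 endothelial markers, was higher, at 44.0, 28.7 and 46.6 CPM in the saline mice and 127, 114 and 91.9 CPM in the PD mice (log2 fold change 1.48 ± 0.17 (SE), edgeR adjusted p = 2.73e-05). Adamts6, a relative of Adamts10, was at 11.8, 10.9 and 11.6 CPM in the saline mice and 8.79, 7.38 and 7.11 CPM in the PD mice. The PD mice lay below the saline mice there too (log2 fold change -0.55 ± 0.14 (SE), edgeR adjusted p = 0.00483), and it was lower on both scales.

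Several ADAMTS calls were lost in fits with a mouse left out, which also rest on fewer mice. The log2 fold change of Adamts7, 1.53 in the main fit, was 1.63 without saline 1 and 1.07 without saline 2. It was 1.56, 1.51 and 1.53 without PD 1, PD 2 and PD 3. Without PD 1, 5 ADAMTS genes were higher in place of 9. Adamts7 lost its call without saline 1, saline 2 or any PD mouse, Adamts8 without saline 1, saline 2, PD 1 or PD 2, and Adamts5 without saline 2, saline 3, PD 1 or PD 2, with edgeR adjusted p-values of up to 0.0845, 0.125 and 0.0746. The log2 fold change of Adamts8 ran from 1.21 without saline 1 to 2.47 without saline 3, and it did not pass with DESeq2 (adjusted p = 0.0569) or the replicate block (edgeR adjusted p = 0.071). Adamts10 lost it without PD 1 (up to 0.0733), and Adamts13 without any mouse but PD 3 (up to 0.142, log2 fold change -1.98 to -1.05). Scaled to endothelial markers, Adamts4, Adamts7, Adamts8 and Adamts15 did not pass, at log2 fold changes of 0.46, 0.84, 0.90 and 0.82.

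Of the 8 tested ADAM genes, 4 were higher on the TMM scale, against 31.0% of all genes tested, and 4 did not pass the test. Their median log2 fold change was 0.75. Scaled to endothelial markers, 3 were higher and 3 (Adam10, Adam17 and Adam19) lower, against 11.9% and 63.9% of all genes tested, whose median log2 fold change was -0.67 there. The sheddases Adam10 and Adam17, which release Notch receptors, cytokines and growth factors, were nearly level between the groups on the TMM scale. Adam10 (ENSMUSG00000054693, chr9:70678997-70780229 on the plus strand) was at 205, 214 and 212 CPM in the saline mice and 178, 208 and 207 CPM in the PD mice. The groups overlapped (log2 fold change -0.09 ± 0.07 (SE), 95% interval -0.25 to 0.07, edgeR adjusted p = 0.292), and scaled to endothelial markers Adam10 was lower, with a log2 fold change of -0.78. Adam17 (ENSMUSG00000052593, chr12:21323509-21373632 on the minus strand), the TNF-converting enzyme, was at 114, 120.1 and 123 CPM in the saline mice and 134, 133 and 130.2 CPM in the PD mice. The PD mice were slightly above the saline mice without passing the test (log2 fold change 0.15 ± 0.06 (SE), 95% interval 0.02 to 0.29, edgeR adjusted p = 0.0521), and the value was -0.54 when scaled to endothelial markers. Both intervals leave out a change of 2-fold on the TMM scale.

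The ADAM genes that rose were others. Adam8 (ENSMUSG00000025473, chr7:139978932-139992562 on the minus strand), a sheddase of myeloid cells, was at 16.7, 14.8 and 14.2 CPM in the saline mice and 47.2, 41.7 and 45.4 CPM in the PD mice. No mouse overlapped with the other group (log2 fold change 1.56 ± 0.10 (SE), edgeR adjusted p = 2.85e-07). Adam9 (ENSMUSG00000031555, chr8:24949611-25016927 on the minus strand), a widely expressed member, was at 26.7, 26.3 and 25.7 CPM in the saline mice and 75.9, 76.8 and 74.6 CPM in the PD mice. Replicates were tight and the groups apart (log2 fold change 1.53 ± 0.07 (SE), edgeR adjusted p = 2.54e-08). Adam15 (ENSMUSG00000028041, chr3:89338542-89349996 on the minus strand), known from endothelial junctions, was at 64.7, 44.9 and 68.4 CPM in the saline mice and 195, 162 and 146 CPM in the PD mice. It rose in all PD mice relative to all saline mice, with saline 2 the lowest (log2 fold change 1.5 ± 0.15 (SE), edgeR adjusted p = 1.04e-05). Adam33, a mesenchymal member, was at 2.30, 3.27 and 2.77 CPM in the saline mice and 5.59, 4.99 and 4.85 CPM in the PD mice. Its groups did not overlap (log2 fold change 0.89 ± 0.20 (SE), edgeR adjusted p = 0.00279), and the GC correction ended its call at a log2 fold change of 0.52, as did scaling to endothelial markers at 0.20.

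Per length, Adam10 was the most abundant ADAM in saline mice, at an FPKM of 45.7 ± 0.927 (SD, n = 3), and Adam15 in PD mice, at 58.9 ± 10.4 (SD, n = 3) against 43.2 ± 2.75 (SD, n = 3) for Adam10. Adam12 was at 1.29, 1.20 and 1.37 CPM in the saline mice and 2.06, 1.76 and 2.04 CPM in the PD mice, without overlap and without passing the test (log2 fold change 0.60 ± 0.27 (SE), edgeR adjusted p = 0.0758), and its log2 fold change was -0.09 when scaled to endothelial markers. Adam19 had a log2 fold change of 0.34 (edgeR adjusted p = 0.0685) on the TMM scale with overlapping groups, -0.36 scaled to endothelial markers, and 0.50 (edgeR adjusted p = 0.0113) without saline 3. It passed with no filter on low counts (edgeR adjusted p = 0.0348), with DESeq2 (adjusted p = 0.0349) and with the replicate block (edgeR adjusted p = 0.0245). The macrophage markers moved with Adam8 (2407 to 2539 CPM, then 9838 to 10521 CPM), and their part in its change was not tested.

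Genes that act on these proteases or are cut by them were mostly higher in PD mice as well. Of 58 listed partners 53 were tested. On the TMM scale 44 were higher and 4 lower, against 31.0% and 27.8% of all genes tested. When scaled to endothelial markers, 29 were higher and 11 lower, against 11.9% and 63.9% of all genes tested. From above 0 on the TMM scale, 14 of the 53 turned below 0, of which 9 were the genes for ADAM10 and ADAM17 maturation. Among 7 tested inhibitors and clearance factors, 6 were higher and 1 lower, or 4 and 2 when scaled to endothelial markers. Largest were the rises of the endocytic receptor Lrp1 (log2 fold change 2.77 ± 0.22 (SE), edgeR adjusted p = 1.52e-06), the protease inhibitor Serpine2 (log2 fold change 1.73) and alpha-2-macroglobulin, A2m (log2 fold change 1.68). Sdc4, a surface proteoglycan, fell by 0.33 on the log2 scale (edgeR adjusted p = 0.0208). Reck, from the same list, was higher on the TMM scale (log2 fold change 0.34, edgeR adjusted p = 0.0374). It was lower when scaled to endothelial markers (log2 fold change -0.35, edgeR adjusted p = 0.0233). Lrp1, which takes up MMPs and TIMPs, was at 6.64, 3.04 and 5.30 CPM in the saline mice and 39.4, 33.5 and 30.4 CPM in the PD mice.

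Of the 7 tested genes listed for the activation of proMMPs, 5 were higher and 1 lower, or 4 and 2 when scaled to endothelial markers. The list holds more than proteases, with Plaur and Bsg among the 7. The proprotein convertases Pcsk6 and Furin, which cut the propeptides of membrane-type MMPs and ADAMs, had log2 fold changes of 2.43 and 1.36 (edgeR adjusted p = 1.54e-05 and 0.00246). Tissue plasminogen activator, Plat, was at 37.1, 36.1 and 40.9 CPM in the saline mice and 97.5, 98.1 and 105 CPM in the PD mice. Its groups lay apart (log2 fold change 1.4 ± 0.08 (SE), edgeR adjusted p = 8.68e-08). The urokinase receptor Plaur fell by 0.28 on the log2 scale (edgeR adjusted p = 0.0204), and plasminogen itself, Plg, had 0 counts in every mouse.

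Of 9 tested genes for the maturation of ADAM10 and ADAM17, 6 were higher on the TMM scale, 0 at least 2-fold. Largest were the changes of the iRhom gene Rhbdf1 (log2 fold change 0.54) and the tetraspanins Tspan5 (0.52) and Tspan14 (0.50). Scaled to endothelial markers, all 9 were below 0 and 4 of them lower. The median of all genes tested was itself -0.67 on that scale, and 63.9% of them were lower. Of 8 tested ADAMTS-like proteins and cofactors, 7 were higher. Adamtsl1, an ADAMTS-like protein with no protease domain, was at 0.273, 0.507 and 0.373 CPM in the saline mice and 7.40, 6.21 and 6.43 CPM in the PD mice. It was higher in every PD mouse (log2 fold change 4.12 ± 0.26 (SE), edgeR adjusted p = 3.16e-07). Pcolce2, an enhancer of procollagen processing, and Fbln1, a cofactor of Adamts1, followed with log2 fold changes of 2.87 and 2.59.

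Of 22 tested substrates, 20 were higher and 2 lower on the TMM scale, against 31.0% and 27.8% of all genes tested. When scaled to endothelial markers, 14 were higher and 3 lower, against 11.9% and 63.9%. The largest changes were in the collagen I chains Col1a1 and Col1a2 and in fibronectin, Fn1 (log2 fold changes 3.85, 3.40 and 3.28). Col1a1 was at 2.77, 2.40 and 5.55 CPM in the saline mice and 62.9, 48.7 and 43.8 CPM in the PD mice. No mouse overlapped with the other group (log2 fold change 3.85 ± 0.25 (SE), edgeR adjusted p = 3.89e-07). Fcer2a (CD23), a B cell surface protein shed by ADAM10, fell by 1.13 on the log2 scale (edgeR adjusted p = 5.35e-08). Fcer2a is also one of the 8 B cell markers, of which all were lower. Col1a1, Col1a2, Col3a1 and Dcn, and the cofactor Fbln1, are also fibroblast markers, of which 9 of 10 were higher. The substrates Cdh5 and Vwf are among the endothelial markers, so they form part of that scale themselves.

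Of the 15 genes that were not tested, 4 (Mmp1a, Mmp1b, Mmp20 and Mmp21) had 0 counts in every mouse and 11 had at least 1 count. Beside the cluster genes above, these were Mmp16, Mmp24, Adamts3, Adamts16, Adamts17, Adamts19, Adamts20 and Adam28, with at most 16 counts in any mouse. Adamts19 had 0, 0 and 0 counts in the saline mice and 6, 2 and 6 counts in the PD mice, and Adam28, a lymphocyte sheddase, had 2, 3 and 2 counts in the saline mice and 0, 0 and 1 counts in the PD mice. No fold is given for either at these counts. Among the tested genes, Adamts7 and Adam17 share 122 and 311 exon bases with Tbc1d2b and Iah1 on the opposite strand.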

How the data were processed

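RNA of cells sorted as peritoneal ECs from 3 saline and 3 PD mice was sequenced after oligo(dT) selection with a NEBNext Ultra kit. The authors deposited 1 table of 22183 genes with read counts per mouse, without normalization, and FPKM values per mouse that the authors computed from them per gene length and depth. The submitters' processing notes name fastp 0.18.0, Bowtie2 2.2.8, HISAT2, StringTie 1.3.1 and RSEM, and the genome build is not given in the sources used here. The authors' own group means, fold change, p-value and FDR columns were not used, and every column of sample values was matched to a mouse (0 left over). The 55 members and all marker and partner lists were chosen with earlier results of these data known.

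Genes with a mean of at least 10 counts over the 6 libraries (13960) were fitted after TMM scaling. PD was compared with saline by the quasi-likelihood F test of edgeR 4.0.16 in R 4.3.3, with no covariate, Benjamini-Hochberg adjustment over all of them and a threshold of 0.05. Standard errors and 95% intervals come from each gene's F statistic. The study names limma, and limma-voom (limma 3.58.1) was an alternative, beside DESeq2 1.42.0, other scalings, filters and a fold threshold, the replicate number as a block, and each mouse left out in turn. A correction for GC content was chosen after seeing the data. The script was tested on simulated data. FPKM was used to compare levels between genes, and to give single genes, class sums and the MMP to TIMP ratio in both groups. No test was run on it. Limits from 0 counts cover counting error only. Positions are from GENCODE M21 (GRCm38), which holds 22128 of the identifiers and all 55 members. Promoters are from RefSeq (GRCm38.p6).

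Per mouse values are given for the TIMPs, Mmp2, Mmp9, Mmp14, Adam10, Adam17 and up to 6 genes a class with the largest absolute log2 fold change past the threshold, with up to 3 genes named for each partner list, and the other members are named by value. Per mouse values of Mmp11, Mmp25 and Adamts6, and the values of Sdc4, Reck, Plaur, Fcer2a and Vwf were added after their values were seen. Some items are not reported here. Pairs of libraries in a group differed by more than counting noise, so each counted as 1 replicate. Depth was 21973426 to 26374292 counts per library.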

Additional observations from a re-analysis of the deposited data

How the results depend on the processing

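The counts of MMP genes (12 higher) and TIMP genes (4 higher) stayed within 1.5 times their reported value under every alternative run. Scaled to endothelial markers, 1 TIMP gene and 3 ADAM genes were lower and 3 ADAMTS genes higher. Of the 40 tested genes 19 were then higher and 7 lower, and 29 partner genes were higher and 11 lower, against 11.9% and 63.9% of all genes tested. On that scale the log2 fold changes of Mmp11 (-0.053), Timp4 (-0.35), Adamts5 (-0.061), Adamts10 (-0.13), Adam17 (-0.54), Adam19 (-0.36), Mmp13 (-0.30), Mmp28 (-0.14), Adamts14 (-0.48), Adamts18 (-0.23) and Adam12 (-0.088) changed sign. The 2 lower genes, both ADAMTS genes, became 1 with no filter on low counts, with DESeq2, with the replicate block and with a 2-fold change required, which also left 1 lower partner gene, the rest having missed the added criterion. With each mouse left out in turn, 5 to 8 ADAMTS genes were higher and 1 to 2 lower. Of the 55 genes, 24 to 29 were higher and 1 to 2 lower, counting any gene that reached the minimum in that fit. In the same fits, 2 to 4 partner genes were lower (2 without saline replicate 1, PD replicate 1 or PD replicate 2). Between 25 (without PD replicate 1) and 31 of the 40 genes were called in any setting. The GC correction ended the calls of Mmp11, Adamts7, Adamts8, Adamts10 and Adam33, and Adam17 passed with it, with limma-voom and with total counts. Adam19 passed with no filter, DESeq2 and the replicate block. Mmp11 did not pass with limma-voom or total counts, Adamts7 and Adamts13 with no filter or DESeq2, Adamts8 with DESeq2, and Mmp11, Adamts8 and Adamts13 with the replicate block. The cause was not tested. Deviations of same-numbered mice correlated at 0.0955, 0.0332 and -0.167 across genes, and those of differently numbered mice at -0.266 to 0.229. The deviations also followed GC content (r from -0.296 for saline 2 to 0.245 for PD 1). These values therefore cannot show whether the mice were handled in pairs. With the replicate block, 28 of the tested genes were higher and 1 lower. Adamts7, Adamts8, Adamts13 and Mmp13 had means near 10 counts, where counting error is large.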
